A study of Mus musculus with 4 samples.

Results

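The data cover 8 genes that mark retinal ganglion cells, Rbpms, Pou4f1, Isl1, Nefl, Nefm, Nefh, Thy1 and Sncg, in lens epithelia of UVB-irradiated and control mouse eyes. The genes were named as markers of that cell type, and each is given by the probe set that carries its symbol alone. All 8 had 1 such probe set, and 19938 genes in all could be read in this way. In each of 2 independent experiments, right eyes of anesthetized male C57BL/6 mice aged 8 weeks received UVB at 30 mJ/cm2, while the left eye of each mouse, under aluminum foil, was the control. Lens epithelia were dissected 1 day later from the posterior side, other tissues, cortex and nucleus were removed, and the epithelial RNA was hybridized to 1 array per condition and experiment, so that UVB and control each had 2 arrays. Animal experiments used 3 mice, but no source used here states how many of them contributed to an array, so p-values measure only the spread between these arrays.

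Retinal ganglion cells are the output neurons of the retina, and their axons form the optic nerve. They take up visual signals from bipolar and amacrine cells and are not part of the lens. Rbpms encodes an RNA-binding protein used as a marker of most ganglion cells. Pou4f1 (Brn3a) encodes a POU-domain transcription factor and Isl1 a LIM-homeodomain factor of ganglion cell differentiation. Nefl, Nefm and Nefh encode the light, medium and heavy neurofilament subunits, which fill large axons. Thy1 encodes a glycoprotein anchored in the cell membrane, and Sncg encodes γ-synuclein. Most of these genes are not unique to this neuron, since Isl1 is also used by bipolar and cholinergic amacrine cells, Thy1 by fibroblasts and T cells, Rbpms by smooth muscle, and neurofilaments by peripheral nerves.

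The values are log2 signals of 28944 probe sets, with array medians of 7.19 to 7.22. The 15 measured marker genes of lens epithelium, the labelled tissue, had mean log2 signals of 8.96 to 13.8. For each probe set, UVB plus control came to the same sum in both experiments, to within 0.01, so the mean of the experiments had been made equal before deposit. With this step, UVB above control in both experiments and both UVB arrays above both control arrays are the same statement. It also makes the spread in a limma fit without pairing too small, and limma with the experiment as a block is given beside each call. In bulk RNA, fewer cells of a type and less RNA per cell cannot be told apart.

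Of the 8 ganglion cell markers, Rbpms and Thy1 were higher in UVB-irradiated than in control lens epithelia in limma without the block, and none was with it. The median log2 fold change of the 8 genes was 0.21, against −0.02 over all probe sets, with a range from 0.025 for Isl1 to 0.45 for Nefl. In 6 of the 8, Rbpms, Nefl, Nefm, Nefh, Thy1 and Sncg, both UVB arrays lay above both control arrays, which held for 24.0% of all probe sets. For Pou4f1 and Isl1 the groups overlapped, and no member had both UVB arrays below both controls, as 37.4% of all probe sets did. None of the 8 passed both thresholds of the study, 1.8-fold and p 0.01 before adjustment, which 0.111% of probe sets passed as higher. With the same p, 0 members passed at 1.5-fold, against 0.349% of probe sets, and 1, Rbpms, passed at 1.2-fold, against 1.96%. Before adjustment, 6 of the 8 were higher at a limma p of 0.05, against 14.4% of probe sets. At an adjusted p of 0.05 in limma (Benjamini-Hochberg over all probe sets), Rbpms and Thy1 were higher, 2 of 8 members against 6.62% of probe sets called higher and 11.0% called lower. That split depends on the scaling, with 1915 probe sets higher and 3184 lower as deposited, 2348 higher and 2169 lower with equal 75th percentiles, and 1803 higher and 4921 lower with equal medians. With the block, limma called 0 of the 8 and 0.0% of all probe sets, with 4 members (Rbpms, Nefl, Nefh and Thy1) at an unadjusted p under 0.05, against 5.69% of probe sets so placed as higher. The smallest p that an exact permutation of 2 arrays against 2 can give for a single gene is 0.333.

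**Figure D1:**
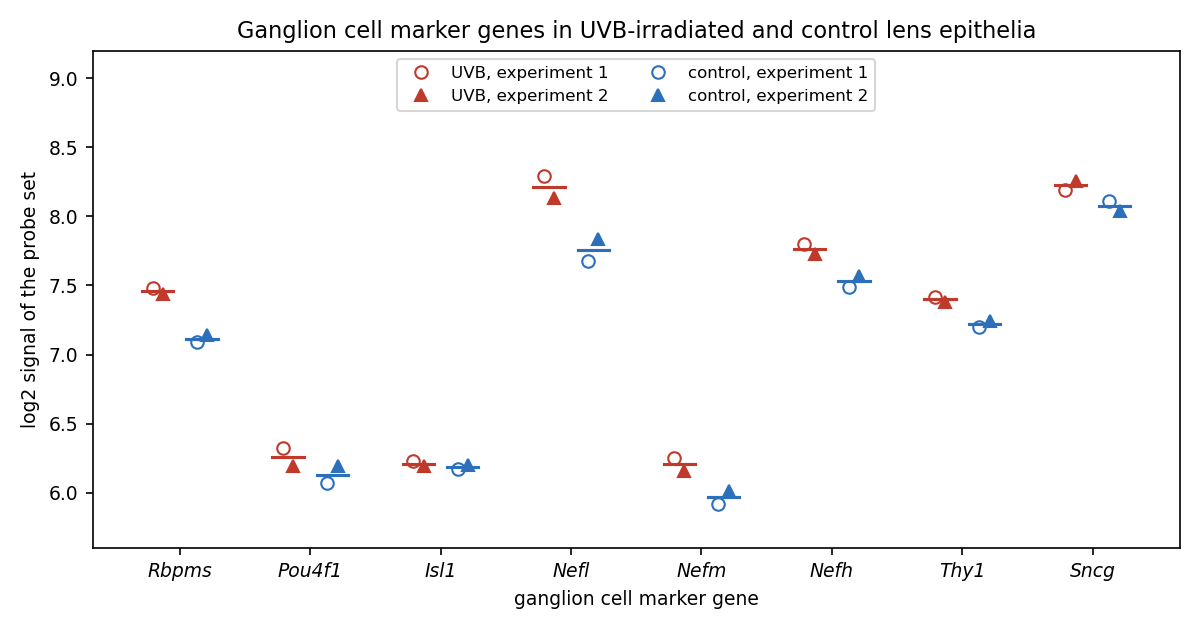
Log2 signal of the probe set of each ganglion cell marker gene (vertical) on the 2 UVB arrays (red, left of each pair) and the 2 control arrays (blue, right), with experiment 1 as open circles, experiment 2 as filled triangles and bars at the mean. The UVB points lie above the control points for 6 of the 8 genes, and those of Pou4f1 and Isl1 overlap.

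Rbpms was the member with the smallest unadjusted p in limma, both without and with the block. Its log2 signals were 7.48 and 7.44 in UVB-irradiated epithelia, against 7.09 and 7.14 in control epithelia, in experiments 1 and 2. The gap of 0.30 between the lower UVB array and the higher control array was larger than the distance between arrays of a group. The mean was 7.46 ± 0.028 in UVB and 7.12 ± 0.035 in control epithelia (SD, n = 2 arrays each), a 1.27-fold difference. These SDs and distances within a group understate the spread, since the experiment means had been made equal before deposit. Limma gave a log2 fold change of 0.345 (standard error 0.028). The adjusted p in limma was 0.0250 without and 0.357 with the experiment as a block. Of all probe sets, 98.0% had a lower log2 fold change. Rbpms2, its closest relative, which also marks ganglion cells, had 7.66 and 7.59 in UVB epithelia and 7.52 and 7.60 in control epithelia, so that its groups overlapped.

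The transcription factors Pou4f1 and Isl1 did not separate UVB from control. Pou4f1 had log2 signals of 6.32 and 6.19 in UVB epithelia, against 6.07 and 6.19 in control epithelia. The experiments gave differences of 0.25 and 0, for a log2 fold change of 0.125 and an adjusted p of 0.324 in limma. The 95% interval ran from −0.12 to 0.37, and from −0.23 to 0.48 with the block. Isl1 had 6.23 and 6.19 in UVB epithelia, against 6.17 and 6.20 in control epithelia. Its log2 fold change was 0.025 at limma's adjusted p of 0.479, with a 95% interval from −0.049 to 0.099, or from −0.12 to 0.17 with the block. The intervals of both genes include 0, and that of Pou4f1 is the wider. Among their relatives, Isl2 had 6.98 and 6.85 in UVB epithelia against 6.77 and 6.90 in control epithelia, and Pou4f3 had 6.16 and 6.0 in UVB epithelia against 6.10 and 6.26 in control epithelia. Neither separated the groups.

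The 3 neurofilament genes had higher signals on both UVB arrays than on both control arrays, with the larger difference in experiment 1, but none passed an adjusted p of 0.05 in limma. Nefl had the largest difference of the members. Its log2 signals were 8.29 and 8.13 in UVB epithelia, against 7.68 and 7.84 in control epithelia, a 1.37-fold difference of the means. The difference was 0.61 in experiment 1 and 0.29 in experiment 2, and limma gave a log2 fold change of 0.45 (standard error 0.095) at an adjusted p of 0.0761. Nefm, whose gene lies next to Nefl with 0 protein-coding genes between them in RefSeq's mouse annotation, had 6.25 and 6.16 in UVB epithelia against 5.92 and 6.01 in control epithelia. Limma's log2 fold change for Nefm was 0.24 (standard error 0.054), and its adjusted p 0.0843, or 0.0487 after quantile normalization, which alone among the scalings tried brought it past the threshold. All 4 signals of Nefm lay under 6.38, the 95th percentile of the mean signals of olfactory and vomeronasal receptor genes, so that its values were not distinguishable from the low end of the arrays. Nefh, on another chromosome, had 7.80 and 7.73 in UVB epithelia against 7.49 and 7.57 in control epithelia. Limma gave Nefh 0.235 on the log2 scale (standard error 0.045), and an adjusted p of 0.0682. The difference of Nefh was 0.31 in experiment 1 and 0.16 in experiment 2.

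Thy1 was higher after UVB in limma without the block, by 0.22 on the log2 scale in experiment 1 and 0.14 in experiment 2. Its log2 signals were 7.42 and 7.38 in UVB epithelia, against 7.20 and 7.24 in control epithelia. Thy1 thus differed by 0.18 on the log2 scale (standard error 0.025), or 1.13-fold. Limma's adjusted p was 0.0432, and the blocked fit gave 0.357. Sncg had 8.19 and 8.26 in UVB epithelia, against 8.11 and 8.04 in control epithelia. Its log2 fold change of 0.15 (standard error 0.042) did not pass, at limma's adjusted p of 0.115. It was the 1 member with a larger difference in experiment 2 (0.22) than in experiment 1 (0.08). Its relative Sncb, the β-synuclein gene, had 8.76 and 8.79 in UVB epithelia against 8.51 and 8.47 in control epithelia, and was higher in limma (adjusted p = 0.0238, blocked 0.357).

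The upstream sequences of Isl1 and Sncg are shown because they are the member with the smallest difference and the one with the highest signals. Both are the 250 bases before the RefSeq start site in build GRCm38.p6, on the minus strand and written 5′ to 3′. That of Isl1 is chr13:116309689-116309938 and that of Sncg is chr14:34374670-34374919. Capitals mark TAAT, the core of many homeodomain sites, or its reverse complement ATTA, extended to TAATCC where that longer motif, bound by Otx2 and Crx, is present.
Isl1: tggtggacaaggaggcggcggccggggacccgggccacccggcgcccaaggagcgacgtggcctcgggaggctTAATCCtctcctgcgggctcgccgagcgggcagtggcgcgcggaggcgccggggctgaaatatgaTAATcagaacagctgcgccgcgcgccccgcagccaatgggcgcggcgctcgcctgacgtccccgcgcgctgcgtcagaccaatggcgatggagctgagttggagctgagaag
Sncg: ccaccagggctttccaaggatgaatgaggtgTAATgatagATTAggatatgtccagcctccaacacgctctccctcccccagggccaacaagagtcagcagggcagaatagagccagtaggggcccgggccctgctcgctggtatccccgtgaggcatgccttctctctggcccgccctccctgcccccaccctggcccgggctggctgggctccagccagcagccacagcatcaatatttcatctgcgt

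A promoter was given for 3 of the 8 members, Isl1, Pou4f1 and Sncg, and both strands were searched. Isl1 held TAATCC once, starting 177 bases before the start site, and a second TAAT that does not overlap it. Sncg held TAAT or ATTA at 2 places and no TAATCC, and Pou4f1 held neither. Of 32851 promoters of the same length, 6.25% held TAATCC and 54.9% held TAAT, which every TAATCC contains. The sequences also differ in CG dinucleotides, with 33 in Isl1, 47 in Pou4f1 and 7 in Sncg, against a median of 6 over all promoters. A match describes the letters only and says nothing of binding.

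The 8 probe sets differed in where their signals lay on the arrays. Probe sets differ in how strongly they bind, so these positions give no order of transcript levels between genes. The mean log2 signals of Sncg (8.15), Nefl (7.98), Nefh (7.65), Thy1 (7.31) and Rbpms (7.29) lay above 51.3% to 64.9% of all probe sets. Those of Isl1 (6.20), Pou4f1 (6.19) and Nefm (6.08) lay above 28.0% to 30.2%. The arrays give no call of presence, so the 1194 measured olfactory and vomeronasal receptor genes, which belong to sensory neurons of the nose, were taken as a description of the low end after the values were seen. Their mean log2 signals had a median of 4.86, a 95th percentile of 6.38 and a 99th percentile of 6.91. Isl1, Pou4f1 and Nefm lay below that 95th percentile, and the other 5 above the 99th. A level of Isl1, Pou4f1 or Nefm in these epithelia was therefore not distinguishable from such signals in either group.

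The 2 experiments weighed differently on the members than on the photoreceptor genes. The median difference of the 8 members was 0.28 in experiment 1 and 0.155 in experiment 2, and 7 of the 8 were larger in experiment 1, against 50.0% of all probe sets. The 27 measured photoreceptor genes had medians of 0.57 and 1.0, with 22 of them larger in experiment 2. The 12 genes of the retinal pigment epithelium had medians of 0.83 and 0.655, with 9 larger in experiment 1. Of 38 other ganglion cell genes, 21 were larger in experiment 1 and 14 in experiment 2. Of 24 lens fiber genes, 18 were larger in experiment 1 and 4 in experiment 2. All of these differences share the same 4 arrays, and with 1 array per condition in an experiment the difference between experiments was not tested.

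**Figure D2:**
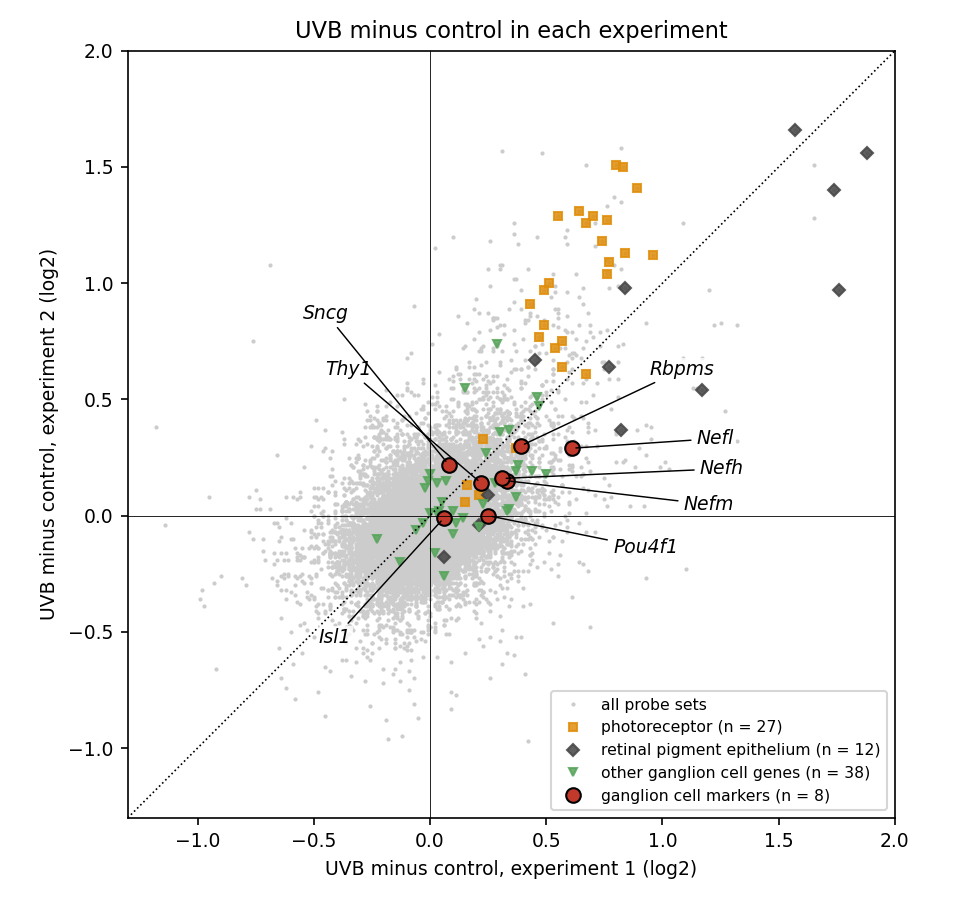
UVB minus control on the log2 scale in experiment 1 (horizontal) and experiment 2 (vertical) for all probe sets (grey), 38 other ganglion cell genes, 27 photoreceptor genes, 12 pigment epithelium genes and the 8 ganglion cell markers, with equal differences on the dotted line. Of the 8 markers, 7 lie below the line and Sncg above it, and 22 photoreceptor genes lie above it.

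Other genes of ganglion cells had smaller differences than the 8 markers in the median. Of 42 listed, 38 were measured, with a median log2 fold change of 0.0875, and 23 of the 38 had both UVB arrays above both controls, against 24.0% of all probe sets. None passed 1.8-fold with an unadjusted p of 0.01. In limma, 5 were higher and 2 lower at an adjusted p of 0.05, against 6.62% and 11.0% of all probe sets, and 0 were called with the block. With equal 75th percentiles 6 were higher and 0 lower, and with quantile normalization 8 were higher and 1 lower. Of all 28944 probe sets, the former called 2348 higher and 2169 lower, and the latter 2150 higher and 2504 lower. Stmn2, which encodes stathmin-2, a microtubule regulator of growing axons, had log2 signals of 7.01 and 7.01 in UVB epithelia against 6.54 and 6.54 in control epithelia (log2 fold change 0.47). Foxp2, a forkhead factor of some ganglion cell types, had 7.08 and 7.10 in UVB epithelia against 6.74 and 6.73 in control epithelia. The other 3 that were higher, named after their values were seen, were Chrna6, a nicotinic receptor subunit (log2 fold change 0.485), Tbr1, a T-box factor (0.255, at a mean signal of 5.57, under the receptor genes' 95th percentile), and Scn2a, a sodium channel (0.33). Scn2a has several probe sets, of which that with the highest mean is given. The mean signals of Stmn2 (6.775) and Chrna6 (6.86) lay between the receptor genes' 95th and 99th percentiles (6.38 and 6.91). The 2 that were lower without rescaling were Dlx1 and Ebf1, transcription factors, with log2 fold changes of −0.06 and −0.165, and neither was called lower with equal 75th percentiles. Some other genes of the list had overlapping groups, and 2 of them are named here after their values were seen. Opn4, the melanopsin of intrinsically photosensitive ganglion cells, had 8.36 and 8.36 in UVB epithelia against 8.36 and 8.35 in control epithelia. Tubb3, a neuronal tubulin, had 6.01 and 6.09 in UVB epithelia against 6.02 and 5.94 in control epithelia. The mean signal of Tubb3 (6.015) lay under the receptor genes' 95th percentile.

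Genes of the axon cytoskeleton, a list that shares Stmn2, Gap43 and Tubb3 with the last, included Stmn2, Nfasc and Ina among those called higher. Of 21 measured, 13 had both UVB arrays above both controls and 4 had both below, against 24.0% and 37.4% of all probe sets. At an adjusted p of 0.05 in limma, 8 were higher and 1 lower (0 with the block), against 6.62% and 11.0% of all probe sets, at a median log2 fold change of 0.09. Nfasc, a cell adhesion molecule of the axon initial segment, had 8.29 and 8.30 in UVB epithelia against 7.96 and 7.96 in control epithelia. Ina, whose product α-internexin assembles with neurofilaments, had 7.68 and 7.68 in UVB epithelia against 7.39 and 7.40 in control epithelia, a log2 fold change of 0.285 at limma's adjusted p of 0.0210. Prph, the peripherin of peripheral nerves, ran the other way in each experiment, with 6.66 and 6.57 in UVB epithelia against 6.69 and 6.79 in control epithelia, and did not pass (adjusted p = 0.231 in limma). Of 18 genes that respond to ganglion cell injury, 2 were higher and 3 lower in limma at the same adjusted p (6.62% and 11.0% of all probe sets), 0 of them with the block, and the median was −0.04. Socs3, a cytokine feedback inhibitor, was higher (log2 fold change 0.255) and Stmn4, a relative of stathmin-2, was lower (−0.20), in limma without the block. Ina and Socs3 each have 2 probe sets, of which that with the highest mean is given.

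Markers of other cell types moved with the ganglion cell markers to different degrees. The summed linear signals of the 8 members were 1409 and 1357 on the UVB arrays against 1144 and 1186 on the control arrays. Those of the 27 photoreceptor genes were 26999.8 and 30812 on the UVB arrays against 19405 and 17507 on the control arrays. Gnb1, with the highest mean log2 signal of the 27 (12.85), weighed most on these sums, at a log2 fold change of 0.145. All 27 were higher in both experiments, against 24.0% of all probe sets. The median log2 fold change of the 27 was 0.755. Of them, 7 passed the study's thresholds as higher, against 0.111% of probe sets. At an adjusted p of 0.05 in limma 16 were higher, against 6.62% of probe sets, while 0 passed the latter with the block. The 12 pigment epithelium genes summed to 6858 and 6376 in UVB epithelia and to 3012 and 3243 in control epithelia. Of these, 10 of 12 were higher in both experiments, against 24.0% of all probe sets. Among the photoreceptor genes past those thresholds, Cnga1, Opn1mw, Pde6a and Gngt1, all of phototransduction, had the largest log2 fold changes (0.985 to 1.15), and Rpe65, Ttr, Rgr and Otx2 were the pigment epithelium genes past them. No marker was at 0, the lowest log2 signal of any probe set being 1.49. The part of RNA from retina or pigment epithelium in the differences of the ganglion cell markers was not tested.

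Inner retinal lists that leave out Isl1 had smaller medians than the photoreceptor and pigment epithelium lists. They did not all stand apart from non-retinal lists, since the fibroblast genes had a median of 0.065. The 15 other bipolar cell genes had a median log2 fold change of 0.10. Of these, 4 were higher at an adjusted p of 0.05 in limma, against 6.62% of all probe sets. The bipolar cell genes had summed signals of 3994 and 4013 in UVB epithelia against 3776 and 3759 in control epithelia. Lrit3, a protein of bipolar cell dendrites, and Scgn, a calcium-binding protein, had the smallest p, and Lrit3 had 7.17 and 7.18 in UVB epithelia against 6.79 and 6.78 in control epithelia. The 17 other amacrine and horizontal cell genes had a median of 0.04, and 2 were higher, Onecut1 and Tfap2b, against the same 6.62%. Their summed signals were 8402 and 8736 in UVB epithelia against 8336 and 8049 in control epithelia. Pax6, also on the lens epithelium list, and Tfap2a had the highest mean log2 signals of these genes (11.54 and 11.17). Both weighed most on the sum, which is therefore not a measure of inner retinal cells alone. The 12 genes of Müller glia and astrocytes had a median of 0.07, and 1 was higher, Rlbp1, a retinoid carrier also made by the pigment epithelium. Counts of 1 or 2 in lists this short are not read as results for a cell type. None of these lists had a call with the block.

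Lists of other cells that use members of the group, and of optic nerve oligodendrocytes, had median log2 fold changes between −0.06 and 0.065. Over all probe sets, limma called 6.62% higher and 11.0% lower at an adjusted p of 0.05. The counts below stand against these shares, and counts of 1 or 2 in lists this short are not read as results for a cell type. The 14 smooth muscle and pericyte genes, set beside Rbpms, had a median log2 fold change of −0.0275, with 0 higher and 2 lower (Myl9 and Cspg4) at an adjusted p of 0.05 in limma. Their summed signals were 10454 and 10586 in UVB epithelia against 10693 and 10623 in control epithelia. Beside Thy1, 11 fibroblast genes had a median of 0.065 with 1 higher (Ogn), at sums of 10196 and 10816 in UVB epithelia against 9723 and 9248 in control epithelia, and 8 T cell genes had a median of −0.0175 with 1 lower. Beside the neurofilaments, 14 genes of peripheral sensory neurons had a median of 0.0175 with 1 higher, and 9 oligodendrocyte genes of the optic nerve had a median of −0.06 with 1 higher and 2 lower. The genes called in the T cell, sensory neuron and oligodendrocyte lists had mean signals under the receptor genes' 95th percentile, so nothing is read from them. Lens epithelium genes had a median of 0, with Gja1, Foxe3 and Col4a4 lower, and lens fiber genes one of −0.0425, with Bfsp2 and Crygc lower. None of these lists had a call with the block.

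**Figure D3:**
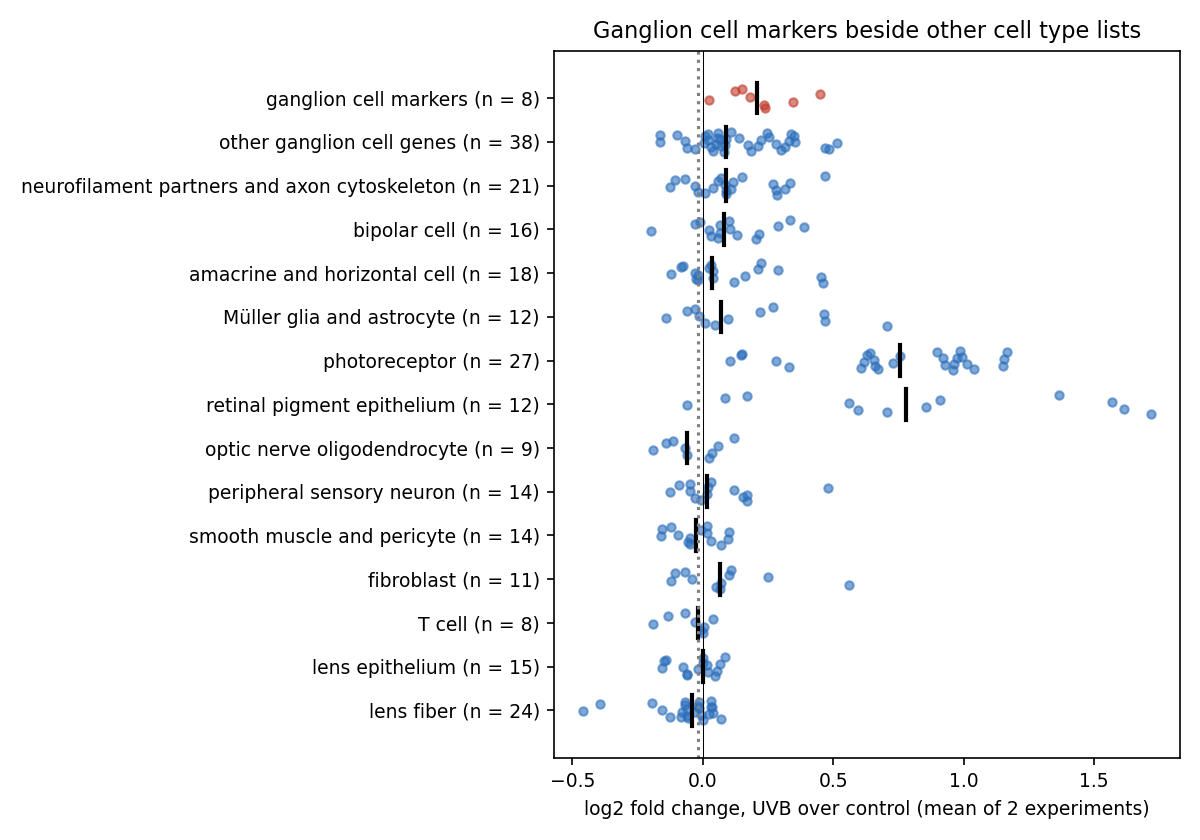
Log2 fold change of UVB over control (horizontal) of each measured gene of the ganglion cell markers (red) and of 14 other cell type lists (blue), with black bars at the median of a list and the dotted line at the median of all probe sets. The 8 ganglion cell markers, with a median of 0.21, lie to the right of 0, and the photoreceptor and pigment epithelium lists lie farther right, with medians of 0.755 and 0.78.

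The genes whose pair of differences lay nearest to that of Nefl, the member with the largest change, were taken from all 19937 other genes over the 2 experiments. Egflam, which encodes pikachurin of the photoreceptor synapse, had differences of 0.62 and 0.32 and lay at a distance of 0.032 on the log2 scale. Glra3, a glycine receptor subunit, had 0.65 and 0.30, and Ptgs2, the inducible cyclooxygenase, had 0.56 and 0.29. The likeness rests on 2 differences per gene and is a description.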

How the data were processed

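Total RNA of lens epithelia (100 ng) was labelled and hybridized to Affymetrix gene arrays. The authors deposited log2 signals, made with Affymetrix Expression Console and normalized between arrays (no version or settings stated). A human array is named in the methods, whereas the deposited probe sets carry mouse symbols. The number of arrays limits the precision. The two-sided test of UVB against control used limma 3.58.1 (R 4.3.3) on all 28944 probe sets (21789 with 1 symbol, 1621 with several, 5534 with none), with no block, as no paired test is described. The experiment as a block pairs the UVB and control arrays of the same number, and the titles do not name the mice of an array. Titles of experiment 2 carry the number 2, and the arrays without a number were taken as experiment 1. Deviations of same-numbered arrays had a correlation of −0.998, as follows from equal experiment means. Residual degrees of freedom were 2, or 1 with the block. The fit was tested on simulated data whose experiment means had not been made equal. That test therefore does not cover the spread that is too small in the deposited values. The members and the 16 other lists (255 of 275 genes matched) were chosen with earlier results of these data known. Genes were named by a rule: the members, their relatives, the 3 nearest patterns, and from each other list up to 4 genes past 1.8-fold and p 0.01 or else the 2 with the smallest p, of which those that passed no test or lay at the low end of the arrays were left unprinted. Other genes (such as Opn4, Tubb3 and Col4a4) were named after their values were seen. Promoters came from RefSeq (GRCm38.p6). Alternatives covered the block, the test, the variance prior, the normalization, the filter, the probe sets, the thresholds and leaving out arrays.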

Additional observations from a re-analysis of the deposited data

How the results depend on the processing

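The median log2 fold change of the 8 markers stayed between 0.155 (experiment 2 alone) and 0.28 (experiment 1 alone) under all alternatives that kept all 8, and between 0.19 and 0.2375 when 1 array was left out. No member changed sign under the other fits and scalings, while Isl1 was at −0.01 in experiment 2 alone. No member passed 1.8-fold with an unadjusted p of 0.01 under any alternative, and 1, Rbpms, passed at 1.2-fold, as 1.96% of probe sets did. The 2 members called at an adjusted p of 0.05 became 0 with the replicate block and 0 with the methods' t-test. They became 1 with equal 75th percentiles and 3 with quantile normalization, where Nefm joined (adjusted p = 0.0487 in limma). Of all 28944 probe sets, 0 were called with the block, and the t-test called 980 higher and 1670 lower. Equal 75th percentiles called 2348 higher and 2169 lower, and quantile normalization 2150 and 2504, against 1915 and 3184 as deposited. Of the other ganglion cell genes, 7 were called (5 higher, 2 lower), against 0 with the replicate block and 3 of 13 among probe sets above the median level. Of all 14448 probe sets above that level, 1182 were called higher and 2278 lower. Quantile normalization called 9 (8 higher, 1 lower), equal 75th percentiles 6 (0 lower), and the other scalings, tests and choices of probe set 6 to 9. Over the 19938 to 28944 features tested, these last settings called 980 to 2044 higher and 1670 to 4921 lower. Leaving out 1 array in turn gave 0 calls for either list (0 to 0), as over all probe sets, of which 5449 to 5527 had an unadjusted p under 0.05 in limma, at adjusted p of 0.250 to 0.251 for Rbpms and Thy1. Only probe sets above the median level left 5 members, without Pou4f1, Isl1 and Nefm. With equal 75th percentiles Thy1 had an adjusted p of 0.0543, and the cause was not tested. The replicate block and the fits without 1 array have fewer residual degrees of freedom. The methods' t-test shares no variance between probe sets, and it called 0 members but 7 other ganglion cell genes (5 higher, 2 lower). Why it called no member was not tested. A crossed pairing of the arrays, added after the data were seen, called 7 members, 36 other ganglion cell genes and 9863 higher and 14020 lower probe sets, since equal experiment means leave almost no spread in it.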
